A study of Chlorocebus aethiops with 8 samples.

Results

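JUND and its relatives of the AP-1 family were followed on 8 arrays of RNA from COS cells, in which RNA helicase A (RHA, the product of DHX9) had been depleted with siRNA or left at its normal level. The members were all probe sets whose annotation carries exactly 1 of the symbols JUND, JUN, JUNB, FOS, FOSB, FOSL1 and FOSL2. The rule found 5 probe sets of 52865, for 4 of its 7 genes: 1 each for JUND, JUNB and FOS, and 2 for FOSL2. JUN, FOSB and FOSL1 had no probe set under their own symbol and were not analysed here. COS cells are a kidney line of the African green monkey that expresses the SV40 large T antigen. They were hybridised to a rhesus macaque array, so probes designed on a related species read their transcripts.

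The groups, of 2 arrays each, were polysomal RNA under RHA siRNA, polysomal RNA under control siRNA, cytoplasmic RNA under RHA siRNA and cytoplasmic RNA under control siRNA. Per the labels, 1 RHA siRNA matched human coding positions 2701 to 2721 and another positions 2784 to 2803. Scrambled versions served as control, and every cell received 0.5 nM of one or the other. Transfection began with 4 h in serum-free medium, went on for 24 h in 10% serum and was repeated after the cells had been split, alike for both siRNAs. The replicate number in the titles divides the arrays into set 1 and set 2, each with 1 array of every group, and the labels do not say that the sets were separate cultures. The p-values therefore measure only the spread between these arrays, which may be technical.

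AP-1 is a dimer of basic leucine zipper proteins that binds DNA and drives genes of growth, stress and matrix remodelling. JUN proteins pair with each other or with FOS proteins, while FOS proteins need a JUN partner. FOS and JUNB are immediate-early genes, whose mRNAs appear briefly after serum or stress and decay quickly. JUND is expressed more steadily and is known to restrain growth in fibroblasts. Its mRNA has a structured leader whose translation is known to need RHA, a helicase that unwinds RNA, and the other members are the comparison here.

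Values are probe set intensities as the authors normalised them, and differences are on the log2 scale. Polysome loading is the log2 ratio of polysomal over cytoplasmic intensity. The loading change is the loading under RHA siRNA minus that under control siRNA, which equals the siRNA effect in polysomes minus that in cytoplasm. Every array had 25 ng of RNA as input, so only loading relative to other RNAs was measured. In such bulk RNA, fewer cells with an mRNA and less of it per cell cannot be told apart. Intensities of different probe sets do not give the order of mRNA levels, because each has its own probes.

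The 2 sets stood apart. With the groups held constant, 13535 of 26383 tested probe sets (51.3%) differed between them at an adjusted p under 0.05 in limma, with r between the arrays of a group of 0.826 to 0.861. Median intensities lay between 19.3 and 20.8, and the cytoplasmic control array of set 1 correlated least with its set (median r 0.949, against 0.967 or more for the other arrays). The plain fit, without the set as a term, leaves that difference in its spread. The main values of the members are therefore also given within the sets, and many of them with the set as a term, called the replicate block. Of the fibroblast and mesenchymal markers, 6 of 7 with a probe set were above the limit for testing by their mean. VIM (4043 to 6345), LOX (578 to 2036) and FN1 (434 to 902) were bright. COL1A1 (19.3 to 381), COL3A1 (18.7 to 50.4) and THY1 (17.1 to 46.8) had lows under the limit of 19.9. COL1A2 stayed at 8.87 to 17.05. Of 8 kidney tubule markers, 3 were above the limit. Those above it were AQP1 (856 to 2262), CDH16 (24.2 to 59.1) and AQP2 (up to 39.9). Of those below it by their mean, UMOD, SLC12A1 and LRP2 stayed at 16.2 or less. SLC12A3 reached 32.76 and CUBN 30.97. Summed over the 8, tubule markers, mostly AQP1, reached 958 to 1761 in polysomes under RHA siRNA and 1248 to 2400 under control siRNA. In cytoplasm they reached 1032 to 1387 under RHA siRNA and 1400 to 2372 under control siRNA, and their part in the results below was not tested. Of 4 leukocyte markers with a probe set 3 were above the limit, CD68 (105 to 286), LYZ (27.8 to 119) and CD14 (16.4 to 27.8), while PTPRC stayed at 6.70 to 12.9.

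DHX9, the siRNA target, had a bright probe set (MmunewRS.268.1.S1_s_at). In polysomes it had an intensity of 97.2 and 269 in sets 1 and 2 under RHA siRNA, against 359 and 477 under control siRNA. In cytoplasm it had 130 and 254 under RHA siRNA, against 244 and 342 under control siRNA. The RHA siRNA array was the lower in each of the 4 pairs. The mean of both fractions was 0.495-fold of control (log2 -1.01, SE 0.42), with adjusted p = 1 in limma and 0.162 with the replicate block. Another 3 probe sets of DHX9 were too dim to be tested. Over both fractions their log2 values were -0.67, -0.31 and -0.00, the last from a probe set listed under another gene ID. How much RHA protein was left is not known from these arrays.

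The probe set of JUND was MmugDNA.10738.1.S1_s_at (gene ID 720182), whose suffix marks probes shared between transcripts. Its mean log2 intensity was 5.40, against a limit for testing of 4.32. In polysomes JUND had an intensity of 31.2 and 41.2 in sets 1 and 2 under RHA siRNA, against 75.5 and 52.8 under control siRNA. Both RHA siRNA arrays lay below both control arrays in that fraction. In cytoplasm JUND had 28.1 and 44.0 under RHA siRNA, against 42.0 and 38.3 under control siRNA, and these groups overlapped. The polysomal control arrays were thus the highest of all 8 for JUND, and the other 3 groups lay close together. By group mean the order, highest first, was polysomes under control siRNA (5.98 ± 0.37, log2, SD, n = 2), cytoplasm under control siRNA (5.33 ± 0.10), polysomes under RHA siRNA (5.16 ± 0.28) and cytoplasm under RHA siRNA (5.14 ± 0.46). Neighbours among the last 3 of these means differed by less than the larger of their SDs.

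**Figure D1:**
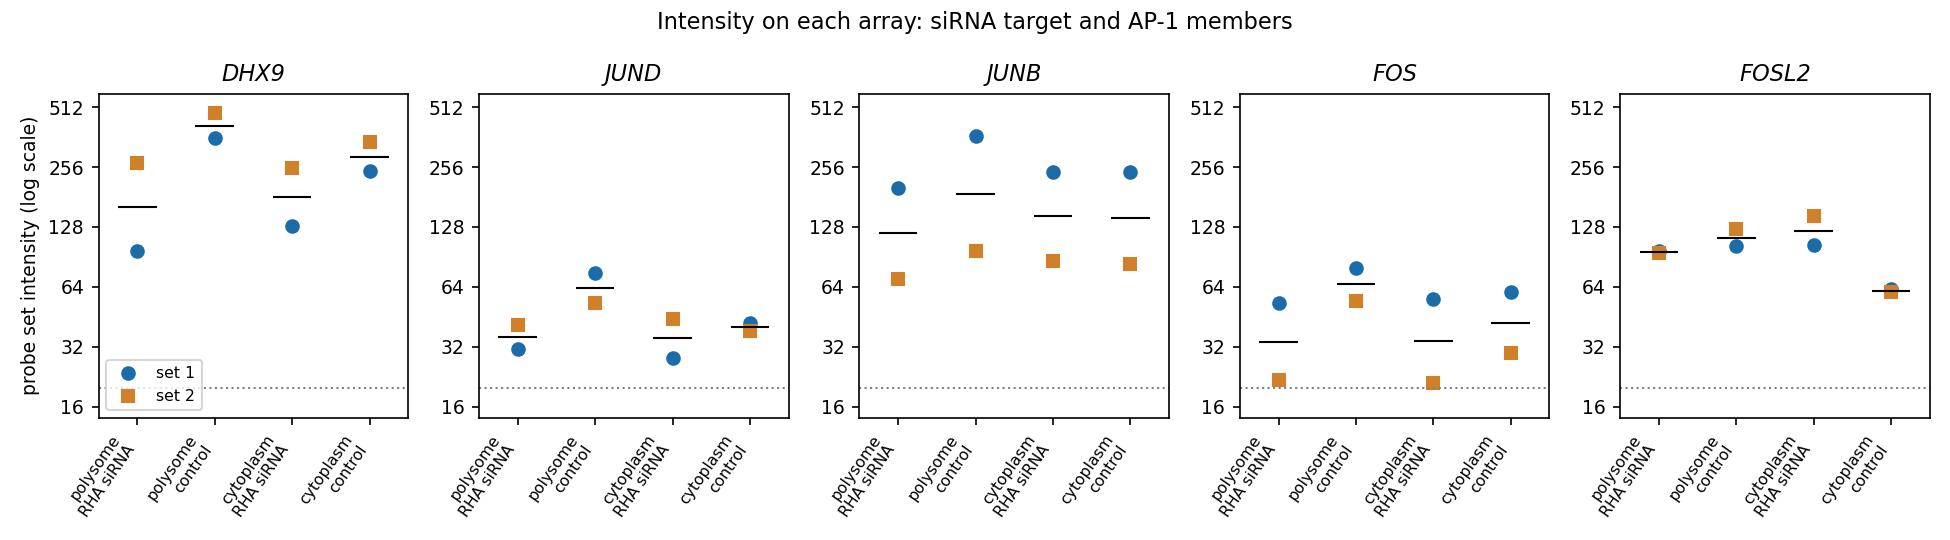
Intensity of DHX9 and of the tested probe sets of JUND, JUNB, FOS and FOSL2 on each of the 8 arrays (vertical axis, log scale), by fraction and siRNA. Points are arrays of set 1 (circles) and set 2 (squares), black bars are geometric means of 2 arrays, and the dotted line is the limit for testing (19.9). JUND is highest on the 2 polysomal control arrays, JUNB and FOS are lower in set 2 in every group, and FOSL2 is lowest on the 2 cytoplasmic control arrays.

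The siRNA effect on JUND was log2 -0.82 in polysomes (SE 0.38; -1.28 and -0.36 in sets 1 and 2), or 0.568-fold of control. It was -0.19 in cytoplasm (SE 0.38), where the sets had opposite signs (-0.58 and 0.20). JUND loading was 0.03 under RHA siRNA (0.15 and -0.09), against 0.65 under control siRNA (0.84 and 0.46). The loading change of JUND was -0.63 (SE 0.54; -0.70 and -0.56), and its 95% interval ran from -1.93 to 0.68, or from -1.66 to 0.41 with the replicate block. The adjusted p in limma was 1 for each of these values of JUND, and 0.967 with the block for the loading change. For JUND in polysomes the unadjusted p in limma was 0.0741, or 0.0327 under the block (0.970 when adjusted), where FOS had 0.00822 and JUNB 0.0232 (both 0.963 when adjusted). Both 0 and a loading change of log2 -1 lie within that interval.

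No member was called in any of 6 comparisons, and nearly no other probe set was. For the loading change limma called 0 of 26383 (0%), with 46 at an unadjusted p under 0.05 (0.174%), or 1048 (3.97%) with the block, which also called 0. For the siRNA effect in polysomes it called 0 (0%), with 137 at an unadjusted p under 0.05, or 1334 with the block. For the effect in cytoplasm it called 0 (0%), with 426 and 3174. For loading under RHA siRNA it called 0 (0%), with 70 and 1177, and for loading under control siRNA 0 (0%), with 55 and 1087. Over both fractions it called 0 (0%), with 540 and 3156, and with the block it called 2 (0.00758%), neither of them a member. Values below are therefore described by sample and set, and a missed threshold does not show that a gene stayed level.

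JUNB, the second JUN protein on the array and often an antagonist of JUN, was read by probe set MmugDNA.21723.1.S1_at (gene ID 717837). In polysomes JUNB had 202 and 70.0 in sets 1 and 2 under RHA siRNA, against 365 and 96.9 under control siRNA. In cytoplasm JUNB had 243 and 86.5 under RHA siRNA, against 242 and 83.8 under control siRNA. Within each set the polysomal array under RHA siRNA was the lowest of the 4 and the polysomal control array the highest. Across the sets the groups overlapped, because JUNB was lower in set 2 by log2 -1.61 (adjusted p in limma = 0.000211 for the set difference). The siRNA effect on JUNB was -0.66 in polysomes (SE 0.95, or 0.24 with the block; -0.86 and -0.47 in the sets) and 0.03 in cytoplasm (0.01 and 0.05; -0.10 after quantile normalisation between arrays). JUNB loading was -0.29 under RHA siRNA (-0.27 and -0.31), against 0.40 under control siRNA (0.59 and 0.21; a mean of 0.20 after quantile normalisation). The loading change was -0.69 (SE 1.34, or 0.33 with the block; -0.86 and -0.52), with adjusted p in limma of 1 and of 0.967 with the block.

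FOS, the prototype FOS protein, was read by probe set MmugDNA.38565.1.S1_at (gene ID 702077). In polysomes FOS had 52.9 and 21.6 in sets 1 and 2 under RHA siRNA, against 79.7 and 54.5 under control siRNA. Every RHA siRNA array lay below both control arrays there, and the array of set 2 was close to the limit for testing (19.9). In cytoplasm FOS had 55.6 and 20.9 under RHA siRNA, against 60.1 and 29.8 under control siRNA, and these groups overlapped. The RHA siRNA array of set 2 was close to the limit in cytoplasm too, so the set 2 loading under RHA siRNA compares 2 values near it. As for JUNB, set 2 was lower (log2 -1.06, adjusted p in limma = 0.00284 for the set difference), while for JUND and FOSL2 the sets differed by 0.10 and 0.17, which did not pass (adjusted p in limma = 0.733 and 0.436). The siRNA effect on FOS was -0.96 in polysomes (SE 0.68, or 0.28 with the block; -0.59 and -1.33), or 0.513-fold of control, and -0.31 in cytoplasm (-0.11 and -0.51). FOS loading was -0.01 under RHA siRNA (-0.07 and 0.05; a mean of 0.046 after quantile normalisation), against 0.64 under control siRNA (0.41 and 0.87). The loading change was -0.65 (SE 0.97, or 0.39 with the block; -0.48 and -0.83; -0.40 after quantile normalisation), with adjusted p in limma of 1 and of 0.967 with the block. With 16 added before log2 the loading change was -0.49. Over both fractions FOS had -0.64 (-0.35 and -0.92). Its adjusted p in limma there, 0.261 under the block, was the lowest of any member in the 6 comparisons, with or without the block.

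FOSL2, or FRA2, a FOS protein that lacks the strong activation domain of FOS, was read by probe set MmuSTS.2660.1.S1_at (gene ID 703068). In polysomes FOSL2 had 96.8 and 94.2 in sets 1 and 2 under RHA siRNA, against 102 and 125 under control siRNA. In cytoplasm FOSL2 had 103 and 146 under RHA siRNA, against 62.5 and 60.03 under control siRNA. FOSL2 was the only one of the 4 genes whose siRNA groups did not overlap in cytoplasm. The siRNA effect was 1.00 in cytoplasm (SE 0.33, or 0.25 with the block), or 2.00-fold of control, with 0.73 and 1.28 in the sets. Its unadjusted p in limma was 0.0197, or 0.00381 with the block (0.279 when adjusted). In polysomes the effect was -0.25 (SE 0.33), with -0.08 and -0.41 in the sets. FOSL2 loading was -0.36 under RHA siRNA (-0.10 and -0.63), against 0.89 under control siRNA (0.71 and 1.06), without overlap of fractions under either siRNA (polysomes lower under RHA siRNA, as for 7.42% of all tested probe sets). The loading change was -1.25 (SE 0.46; -0.81 and -1.69), the largest of the 4, with an unadjusted p in limma of 0.0326. Its adjusted p was 1, and 0.967 under the block. Its 95% interval ran from -2.36 to -0.14 before any correction for the number of probe sets tested.

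The second FOSL2 probe set, MmugDNA.30728.1.S1_at, was dim and was not tested (mean log2 3.91, under the limit of 4.32). It had 14.9 and 16.9 in polysomes under RHA siRNA, against 16.9 and 9.16 under control siRNA. In cytoplasm it had 20.1 and 12.4 under RHA siRNA, against 13.8 and 19.5 under control siRNA. Its loading change was 0.41 with opposite signs in the sets (-0.72 and 1.54). The 2 probe sets of FOSL2 thus disagreed in sign, and the values of FOSL2 rest on 1 of them.

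**Figure D2:**
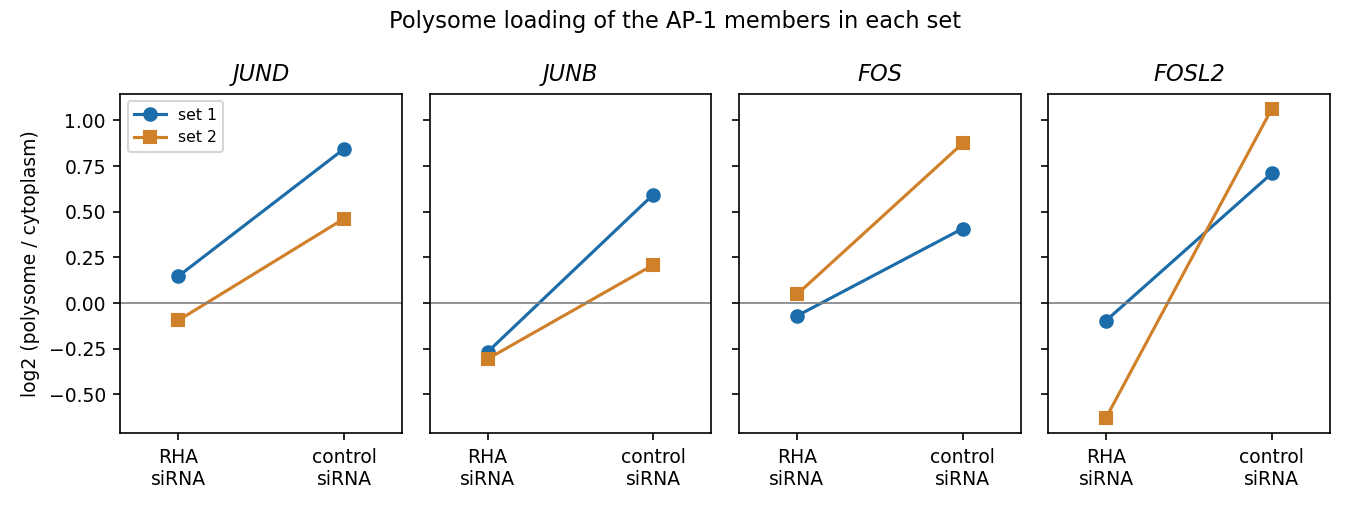
Polysome loading (vertical axis, log2 of polysomal over cytoplasmic intensity) of JUND, JUNB, FOS and FOSL2 under RHA siRNA (left of each panel) and control siRNA (right), in set 1 (circles) and set 2 (squares). Loading under control siRNA lies above 0 in all 8 pairs of arrays, from 0.21 to 1.06, and loading under RHA siRNA lies between -0.63 and 0.15.

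Seen together, the 4 genes had a loading change below 0 in both sets, 4 of 4, where 24% of all tested probe sets did. Their median was -0.67 (-0.75 in set 1 and -0.69 in set 2), against -0.02 for all tested probe sets (-0.06 and 0.08). The loading change of FOSL2 came mainly from cytoplasm (siRNA effect 1.00, against -0.25 in polysomes), unlike that of JUND, JUNB and FOS. Of all probe sets, 11.7% had a loading change below that of JUND, 9.74% below JUNB, 10.9% below FOS and 1.76% below FOSL2. In set 1 these shares were 17.8% to 29.6% for the 4 genes. In set 2 the shares were 10.4% for JUND, 11.8% for JUNB, 4.03% for FOS and 0.114% for FOSL2. The bright probe set of DHX9, which is not an AP-1 gene, had a similar loading change of -0.69 (-0.98 and -0.40 in sets 1 and 2). Its loading was 0.52 under control siRNA (0.56 and 0.48) and -0.17 under RHA siRNA (-0.42 and 0.08). DHX9 is itself the siRNA target, so it says little about other genes. A loading change below 0 in both sets was still not particular to the AP-1 genes, as 24% of all tested probe sets had it.

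The siRNA effect in polysomes was below 0 in both sets for 4 of 4 genes (25.6% of all tested probe sets), with a median of -0.74 against 0.01 for all. Groups did not overlap for JUND, FOS and FOSL2, all with RHA siRNA the lower, as for 7.79% of probe sets. In cytoplasm the median of the 4 was -0.08 against 0.05, and 1 of 4 (FOS) was below 0 in both sets, against 23.6% of all. There FOSL2 alone was without overlap and higher, as for 10.5% of all. Over both fractions the median was -0.41 against 0.03, with 3 of 4 genes (JUND, JUNB and FOS) below 0 in both sets, against 24.3% of all. Loading under control siRNA was above 0 in both sets for 4 of 4 genes (30.5% of all), with a median of 0.65 against 0.07, and JUND and FOSL2 had no overlap between fractions (8.67% of all, polysomes higher). Under RHA siRNA the median loading was -0.15 against 0.02, with 2 of 4 genes, JUNB and FOSL2, below 0 in both sets (24.1% of all). The loading change, the effect in polysomes and the loading under control siRNA share the polysomal control arrays, on which JUND, JUNB and FOS were at their highest in each set. The loading change and the loading under control siRNA also share the cytoplasmic control arrays, on which FOSL2 was at its lowest in each set. These comparisons are not separate pieces of evidence.

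**Figure D3:**
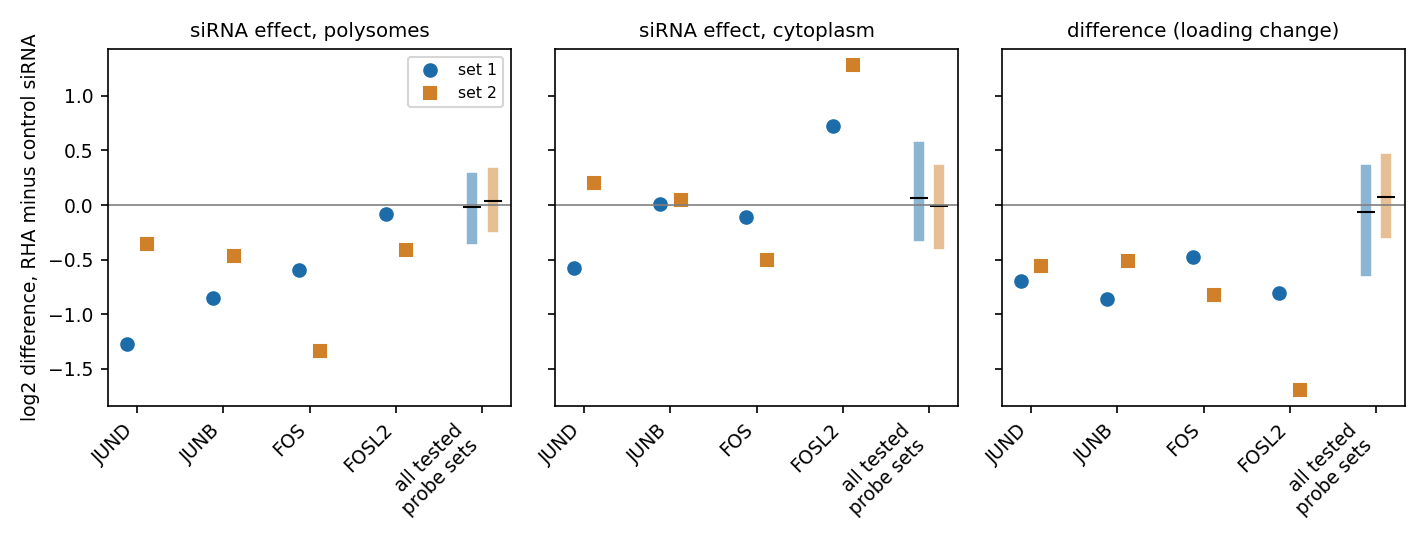
siRNA effect (vertical axis, log2 difference of RHA minus control siRNA) in polysomes, in cytoplasm and as the difference of both (loading change) for the 4 genes, in set 1 (circles) and set 2 (squares). At the right of each panel bars span the 25th to 75th percentile of all 26383 tested probe sets in that set, with the median as a black line. In polysomes the 4 genes lie between -0.08 and -1.33, and in the loading change between -0.48 and -1.69.

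The loading change of JUND minus the mean of the other 3 genes was 0.02 in set 1 and 0.45 in set 2. Against JUNB and FOS alone it was -0.03 in set 1 and 0.11 in set 2. Whether JUND differs from its relatives was not tested, since there are 2 sets. As a rough sign of RNA integrity, the log2 ratio of 3' over 5' signal was taken for 3 control transcripts (actin, GAPDH and EF1A). The ratio was above 0 on every array, from 2.54 to 4.12. Its level cannot be read as RNA quality alone, because the probes were designed on a related species, and what set it was not tested. Its extremes in set 1 were the control siRNA arrays, with 2.54 in polysomes and 4.07 in cytoplasm. In set 1 this ratio differed between RHA and control siRNA by 1.17 in polysomes and by -1.07 in cytoplasm. In set 2 it differed by -0.35 in polysomes and by -0.27 in cytoplasm. Its loading change was thus 2.25 in set 1 and -0.08 in set 2, and the median loading change of the 4 genes was -0.75 in set 1 and -0.69 in set 2. The part of RNA integrity in these values was not tested.

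Among other genes of the AP-1 pathway, dimer partners had 9 of 13 genes on the array, of which 8 were tested and 0 were called in any comparison. Their median loading change was -0.21 (-0.06 and -0.27 in sets 1 and 2), against -0.02 for all tested probe sets. In both sets 3 of 8 were below 0, against 24% of all tested probe sets. The probe sets with the highest intensity were those of CREB5, JDP2, ATF3 and MAFF. JDP2, a repressor that dimerises with JUN proteins, had a loading change of -0.43 (-0.52 and -0.34) and siRNA effects of -0.05 in polysomes and 0.38 in cytoplasm. ATF3, a stress-induced partner, had -0.24 (-0.18 and -0.30), with siRNA effects of -0.39 in polysomes and -0.15 in cytoplasm. CREB5 had -0.09, with opposite signs in the sets (0.53 and -0.71), and MAFF, a small MAF protein, had 0.34 (0.86 and -0.18).

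Kinases and ternary complex factors that act upstream of AP-1 had 18 of 24 genes on the array and 16 tested, with 0 called. Their median loading change was -0.35 (-0.52 and -0.17), and 8 of 16 were below 0 in both sets, against 24% of all tested probe sets. NRAS, a small GTPase at the head of the MAP kinase cascade, had -0.34 (-0.43 and -0.25) and MAP2K1, which phosphorylates ERK kinases, had -0.34 (-0.65 and -0.04). MAP3K1, a kinase above JNK, had 0.45 (0.19 and 0.72), and ELK3, a ternary complex factor, had 0.11 (0.23 and -0.01). A dimmer tested probe set of MAP3K1 had 119 and 112 in polysomes in sets 1 and 2 under RHA siRNA, against 139 and 72.0 under control siRNA. In cytoplasm it had 67.3 and 73.7, against 27.6 and 165. Its loading change was thus below 0 in set 1 and above 0 in set 2. MAPK8, the JNK kinase that phosphorylates JUN, was dim (mean log2 4.51) and had -0.10 (0.13 and -0.34). SRF, the serum response factor that switches on FOS, had no probe set under its symbol.

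Of 10 genes listed for the repression or turnover of JUN and FOS proteins 7 were tested and 0 called. Their median loading change was -0.07 (-0.11 and 0.37), with 1 of 7 below 0 in both sets, against 24% of all tested probe sets. MEN1, the menin gene whose product binds JUND, had no probe set under its symbol. SIRT1, a deacetylase that represses AP-1, had a loading change of 0.73 (0.53 and 0.92), with siRNA effects of 0.03 in polysomes and -0.69 in cytoplasm. FBXW7, a ubiquitin ligase component for phosphorylated JUN, had 0.40 (0.42 and 0.37). COPS5, a coactivator of JUN, had 0.13 (-0.11 and 0.37), and ITCH, a ubiquitin ligase for JUN proteins, had -0.36 (-0.61 and -0.11). A dimmer tested probe set of COPS5 had 251 and 509 in polysomes in sets 1 and 2 under RHA siRNA, against 300 and 366 under control siRNA. In cytoplasm it had 534 and 537, against 141 and 595. Its loading change was thus far below 0 in set 1 and above 0 in set 2.

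Known AP-1 target genes had 19 of 24 on the array and 14 tested, with 0 called in any comparison. Over both fractions their median siRNA effect was 0.15 (0.04 and 0.40), against 0.03 for all tested probe sets, with 3 of 14 above 0 in both sets and 0 of 14 below 0 in both, where 28.6% of all tested probe sets were above 0 and 24.3% below 0 in both. The mean of the sets was below 0 for 5 of 14. CCND1, the cyclin D1 gene, had 55.4 and 91.9 in polysomes under RHA siRNA, against 53.6 and 45.2 under control siRNA. In cytoplasm CCND1 had 86.4 and 68.6 under RHA siRNA, against 56.4 and 44.2 under control siRNA, and its siRNA effect over both fractions was 0.58 (0.33 and 0.83; unadjusted p with the block 0.0320, adjusted 0.360). VIM had 0.06 over both fractions, EZR, a membrane linker, 0.06, DUSP1, a MAP kinase phosphatase, -0.00 and GSTP1, a glutathione transferase, 0.24. GSTP1 had a loading change of -1.22 (-1.89 and -0.54). For the list, the median loading change was -0.14 (-0.31 and -0.07), with 6 of 14 below 0 in both sets, against 24% of all tested probe sets.

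**Figure D4:**
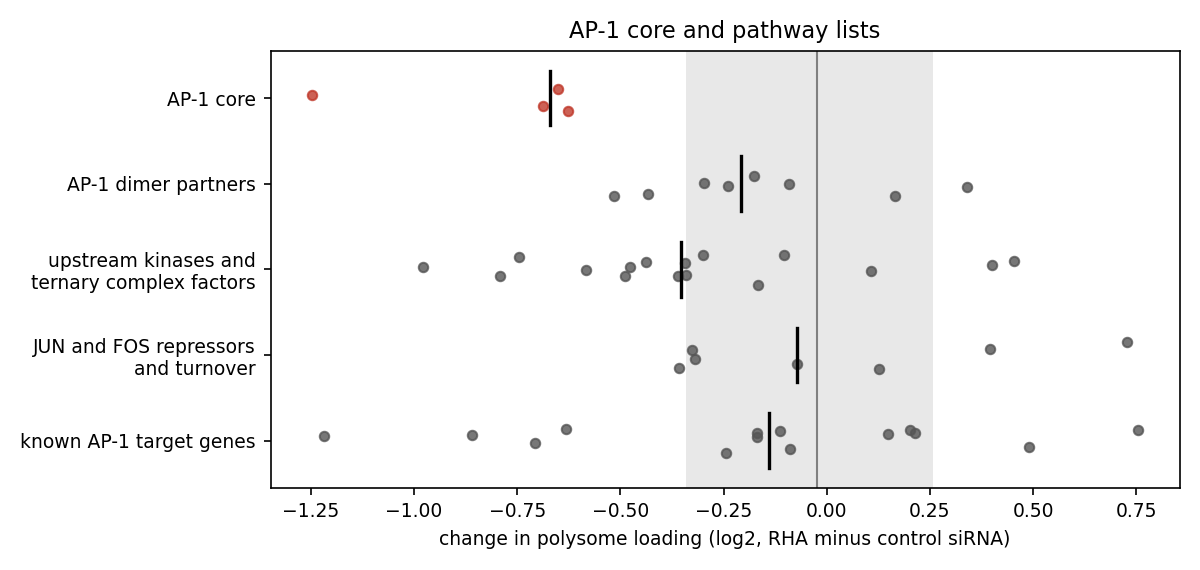
Loading change (horizontal axis, log2, RHA minus control siRNA) of every tested gene in the AP-1 core (red) and in 4 lists of its pathway (grey points), with list medians as black bars. The shaded band spans the 25th to 75th percentile of all tested probe sets (-0.34 to 0.26). The 4 core genes lie between -0.63 and -1.25, and the medians of the other lists between -0.35 and -0.07.

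The genes most like JUND over the 8 arrays, each value taken relative to the mean of its set, were RABEP2 (Pearson's r 0.992), PLXNB2 (0.968), PHKA2 (0.965), DDX60 (0.962) and DHDDS (0.959), of 10105 other genes. They encode an effector of RAB5 in endosomes, a semaphorin receptor, a regulatory subunit of phosphorylase kinase, a DExD/H-box helicase of antiviral sensing and a subunit of the enzyme that makes the precursor of dolichol. With 8 arrays and that many genes, high values of r are found by the search itself. JUNB came 140th with r = 0.854, FOS 1363rd with 0.550 and FOSL2 3987th with 0.175. DDX60, as an example, had a loading change of -0.28 (-0.39 and -0.17), smaller than that of JUND, and PLXNB2 had -0.68 (-0.95 and -0.41). The likeness of PHKA2 rests on its brightest probe set. Under control siRNA a dimmer tested probe set of PHKA2 had 24.4 and 13.1 in polysomes, against 40.3 and 20.5 in cytoplasm, the reverse of the order of JUND.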

How the data were processed

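The authors deposited 1 intensity per probe set and array on a linear scale. GCOS and RMA are named, with neither version nor role, per the submitters' processing notes, and close array medians were taken as a sign of prior normalisation, whose method is not given in the sources used here. Arrays have no read depth, and their number limits the precision. Of 52766 non-control probe sets, the 50% with the higher mean log2 over all 8 arrays (26383, at 4.32 or more) were tested with limma 3.58.1 in R 4.3.3 as a model of 4 groups, two-sided, with Benjamini-Hochberg adjustment over all of them and a threshold of 0.05. The brightest tested probe set stood for its gene. Genes were named through the platform annotation, in which 24969 probe sets had 1 symbol, 361 several and 27535 none. In each pathway list the 4 brightest genes were named, with MEN1, ATF3, MAPK8, CCND1 and SRF. Members and lists were chosen with earlier results of these data known. Same-numbered arrays deviated together (r of 0.680 or more over the 6 pairs of groups). The titles give a replicate number, but no label states what same-numbered arrays share, so the block is an alternative. Where the sets stood apart, the plain fit gives the larger SE, as for JUNB in polysomes (0.95, against 0.24 with the block). Others were no filter, 16 added before log2, quantile normalisation, an intensity trend, probe set averaging and leaving out arrays. No sequences are shown.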

Additional observations from a re-analysis of the deposited data

Results flagged for a closer look

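FOSL2 moved in opposite directions with RHA siRNA in the fractions, below control in polysomes and above it in cytoplasm in both sets, and its loading was below 0 under RHA siRNA and above 0 under control siRNA in both sets. The test of that difference, the loading change of -1.25, had an adjusted p in limma of 1 and of 0.967 with the replicate block. Of all tested probe sets, 4.89% had that pattern in the fractions and 7.19% that pattern in loading. The dim second probe set of FOSL2 did not share it.

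JUNB had the same 2 patterns, with a loading change of -0.69 and adjusted p-values in limma of 1 and of 0.967 with the block. Its siRNA effect in cytoplasm was close to 0 (0.01 and 0.05 in sets 1 and 2), so the opposite sign there is slight, and it turned after quantile normalisation (-0.10).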

How the results depend on the processing

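Over 24 gene values (4 members in 6 comparisons), 142 of 144 repeats under 6 alternatives kept their sign, and none passed the threshold. Most of that count was fixed in advance. The block, the intensity trend, no filter and probe set averaging (1 tested probe set per member) leave these values unchanged. Only adding 16 before log2 and quantile normalisation could turn a sign. The values that turned, both after quantile normalisation, were JUNB in cytoplasm (-0.10) and FOS loading under RHA siRNA (0.046). Of 192 repeats without 1 array 24 turned sign. Some of the 192 could not turn, because the array left out is not used in the comparison. For JUND the repeats ranged from -0.51 to 0.13 for the effect in cytoplasm and from -0.30 to 0.35 for loading under RHA siRNA. Its effect in polysomes (-1.07 to -0.56), over both fractions (-0.66 to -0.34), loading under control siRNA (0.40 to 0.91) and loading change (-0.95 to -0.30) kept their sign. FOS ranged from -1.36 to 0.052 for the loading change, from -0.72 to 0.69 for loading under RHA siRNA and from -1.01 to 0.39 in cytoplasm, and kept its sign in polysomes (-1.61 to -0.32), over both fractions (-0.99 to -0.28) and in loading under control siRNA (0.13 to 1.15). JUNB ranged from -1.65 to 0.27 for the loading change, from -1.05 to 0.48 and from -0.55 to 1.36 for loading under RHA and control siRNA, from -0.74 to 0.79 in cytoplasm, from -1.62 to 0.29 in polysomes and from -0.80 to 0.16 over both fractions. A group left with 1 array carries the set difference of JUNB (-1.61) and FOS (-1.06). FOSL2 kept its sign, with -1.49 to -1.002 for the loading change, -0.39 to -0.10 in polysomes, 0.76 to 1.25 in cytoplasm, 0.26 to 0.50 over both fractions, and -0.61 to -0.12 and 0.74 to 1.03 for loading under RHA and control siRNA. The count of 4 genes with a loading change below 0, repeated after seeing the data, was 2 to 4 without 1 array, and 2 without the cytoplasmic RHA siRNA array of set 1. It was 4 with the replicate block without the cytoplasmic control array of set 1. Over both fractions 2 of all probe sets were called with the replicate block, 33 with the block and without that array, and 0 without the block. The block turned no call of a member. Adding 16 before log2 gave JUND a loading change of -0.48, and quantile normalisation -0.54.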
